A study of Homo sapiens with 7 samples.

Results

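HOX genes are homeobox transcription factor genes that lie in 4 clusters, HOXA to HOXD, in the human genome. The rows studied here were all those whose symbol is HOX, a cluster letter and a paralogue number. They came to 36 genes of the 27981 listed over the 3 single-cell tables. The CHIR library listed 35 of them, the DMSO library 30 and the day 11 library 32, and 29 were listed in all 3. HOXC11, HOXC12 and HOXD12 of the 39 genes in the RefSeq annotation were listed in no table and were not analysed here. In RefSeq coordinates of GRCh38.p14, HOXB spans bases 48528526 to 48728750 of chromosome 17, HOXC 53938831 to 54056030 of chromosome 12 and HOXD 176087487 to 176190907 of chromosome 2.

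The cells were cardiac cells differentiated from H1, which is an established line of human embryonic stem cells, and carried no labelled genetic change. One group was day 15 cells with CHIR, commonly CHIR99021, a compound that inhibits the kinase GSK3 and so activates canonical Wnt signalling. Another was day 15 cells with the solvent DMSO. A day 11 group had no treatment in its labels. Each group was 1 library of droplet-captured cells, so no difference has a replicate check, and every interval given covers counting error only. The series title names Wnt signalling and atrioventricular canal heart muscle, and the question asked here is which HOX genes each kind of cell used and how they stood with CHIR.

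HOX genes are transcribed along the body axis in the order of their place in the cluster. Low paralogue numbers mark anterior tissue and high numbers posterior tissue, and the set of HOX proteins in a cell gives it positional identity. They bind DNA together with TALE cofactors of the PBX, MEIS and PKNOX families. Retinoic acid, Wnt signalling and the caudal (CDX) factors switch them on, Polycomb proteins keep them silent and Trithorax proteins keep them active. In the embryo, anterior HOX genes are known from the posterior second heart field, whose cells contribute to the inflow part of the heart, whereas heart muscle further forward has little HOX transcript.

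Libraries held 81076689 molecular counts (UMIs) in 5607 cells with CHIR, 65675862 in 4015 cells with DMSO and 75906387 in 5683 cells at day 11. Median cells had 12687, 15250 and 12689 UMIs in that order, and ribosomal protein genes took 31.6%, 24.2% and 15.1% of all UMIs. HOX transcripts made up 22290, 13963 and 10513 UMIs, which is 274.9, 212.6 and 138.5 counts per 1000000 UMIs (CPM). Between 3 and 6 cell barcodes were shared by any pair of libraries. UMIs count transcript ends, so levels are not divided by gene length, and how well each gene's end is captured can differ between genes.

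Cells were sorted into classes by the summed UMIs of fixed markers per 10000 UMIs of the cell. Muscle cells had at least 80 muscle marker UMIs (such as TNNT2, ACTN2 and TTN), and numbered 1482 with CHIR, 1939 with DMSO and 3688 at day 11. Mesenchymal cells had at least 10 mesenchymal marker UMIs (such as COL1A1 and COL3A1) with fewer than 40 of muscle, and numbered 3636, 1582 and 1186. All 10 muscle markers and all 9 mesenchymal markers were detected in their classes, at sums of 19088, 18935 and 23927 CPM in muscle cells and 3865, 3484 and 4181 CPM in mesenchymal cells. Endothelial cells numbered 41, 21 and 67, and endoderm cells 18, 42 and 224. A class is a range of marker levels and not a type: between 12.2% and 19.3% of the cells of a library lay within a factor of 2 of the muscle cutoff, and between 5.72% and 12.9% within a factor of 2 of the mesenchymal one.

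HOX level differed several fold between classes and was highest in mesenchymal cells. Summed HOX transcripts stood at 381 CPM with CHIR, 326 CPM with DMSO and 286 CPM at day 11 in mesenchymal cells. Muscle cells held 81.1, 97.5 and 83.2 CPM. Endoderm cells had 99.2 CPM with CHIR (95% interval 67.9 to 140), 57.0 CPM with DMSO (42.9 to 74.2) and 24.3 CPM at day 11 (19.5 to 29.8), so that muscle cells exceeded them with DMSO and at day 11 but not with CHIR. The same endoderm cells held 1402, 1339 and 692 CPM of mesenchymal markers. Their part in the HOX level of endoderm cells was not tested.

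**Figure D1:**
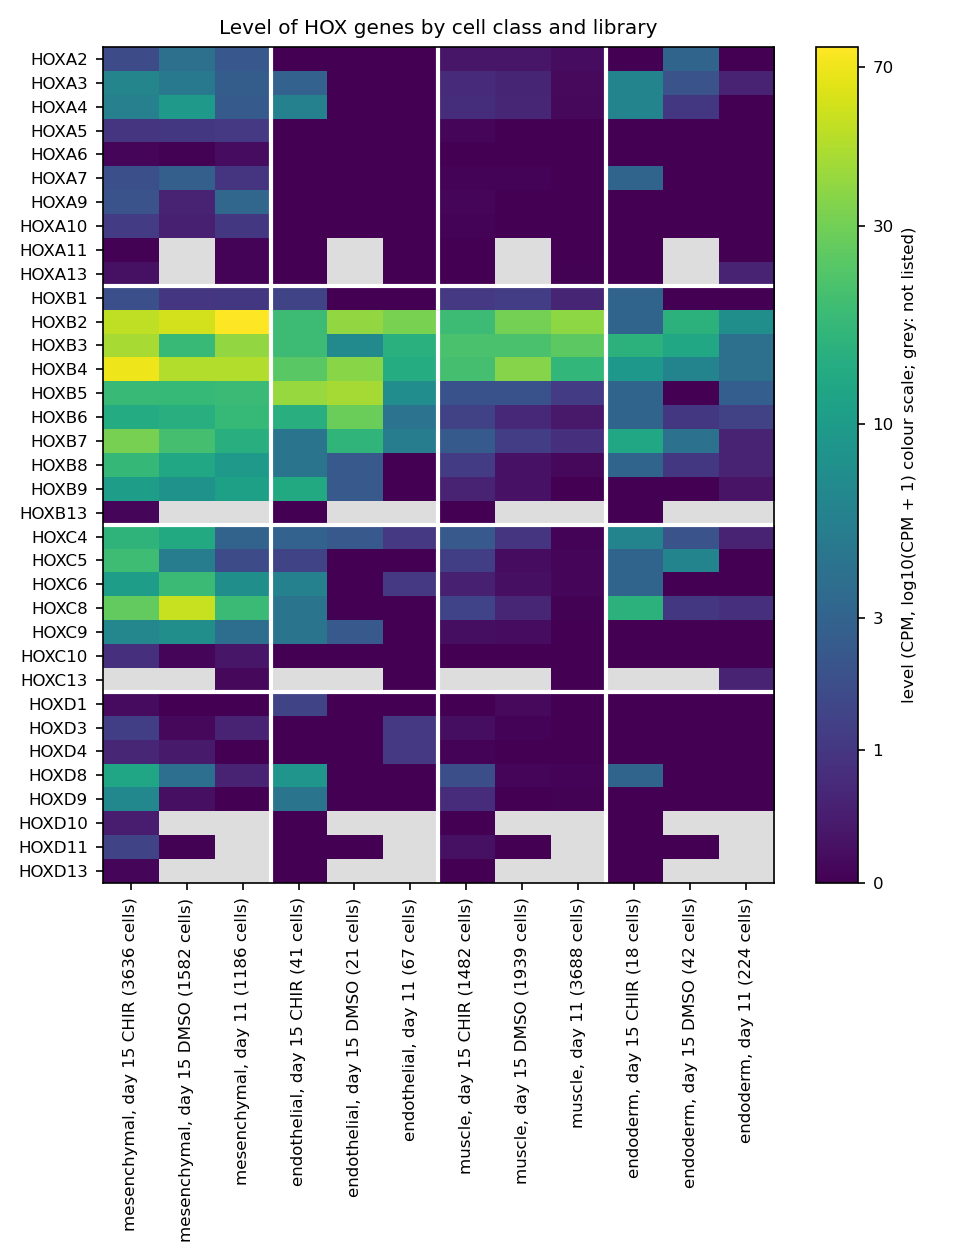
Level of HOX genes, in CPM on a log10(CPM + 1) colour scale, in 4 cell classes of the 3 libraries (columns, with the number of cells); grey marks a gene not listed in that table. HOXB2 to HOXB4 are bright in mesenchymal and muscle cells, whereas HOXB5 to HOXB9, HOXC4, HOXC5, HOXC6, HOXC8 and HOXC9 are higher in mesenchymal than in muscle cells of the same library, with HOXC4 and HOXC5 at only 3.05 and 1.78 CPM in day 11 mesenchymal cells.

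The members of low level are described first by their counts. Of the 36 genes, 13 reached 5 CPM in a library or 10 CPM in a class of at least 50 cells: HOXB2 to HOXB9, HOXC4, HOXC5, HOXC6, HOXC8 and HOXD8. The remaining 23 had between 3 UMIs (HOXB13 and HOXD13) and 711 UMIs (HOXC9) over the 3 libraries. Among them HOXA4 had 707, HOXA3 602, HOXD9 385, HOXA2 295, HOXB1 249, HOXA7 208 and HOXA9 192 UMIs. HOXA5, HOXA10, HOXD11, HOXD3, HOXD4, HOXC10, HOXD10, HOXA13, HOXD1, HOXA6, HOXA11 and HOXC13 had between 4 and 108 UMIs. HOXD10, HOXB13 and HOXD13 were listed in the CHIR table alone, and HOXC13 in the day 11 table alone. HOXD1 was listed at 0 at day 11.

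The HOXB cluster supplied most HOX transcripts in every class with over 50 cells. In muscle cells it held 86.2% of HOX UMIs with CHIR, 95.1% with DMSO and 99.1% at day 11. In mesenchymal cells its share was 67.3%, 60.4% and 82.0%. The HOXC cluster held 21.0%, 30.1% and 12.5% of the HOX UMIs of mesenchymal cells, against 6.99%, 2.08% and 0.250% in muscle cells.

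Muscle cells used an anterior part of the HOXB cluster that ended after HOXB4. HOXB2, an anterior gene best known from hindbrain segments in the mouse, stood at 18.9 CPM with CHIR, 30.9 CPM with DMSO and 36.8 CPM at day 11 in muscle cells. For HOXB3 the levels were 21.6, 21.4 and 25.4 CPM, and for HOXB4 20.8, 34.9 and 17.2 CPM. These 3 genes together held 75.6%, 89.5% and 95.5% of all HOX UMIs in muscle cells. HOXB1, the gene at the anterior end, was low at 1.07, 1.22 and 0.577 CPM.

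Beyond HOXB4 the level of muscle cells dropped sharply. HOXB5 had 2.02, 1.99 and 1.15 CPM there, so that HOXB4 exceeded it 10.3-fold with CHIR (95% interval 7.64 to 14.2), 17.6-fold with DMSO (13.3 to 23.7) and 14.9-fold at day 11 (11.2 to 20.2). HOXB6 to HOXB9 each stayed at or below 2.45 CPM in muscle cells. In mesenchymal cells the same step was 3.80-fold, 2.62-fold and 2.51-fold, with upper bounds of 4.10, 2.90 and 2.85.

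**Figure D2:**
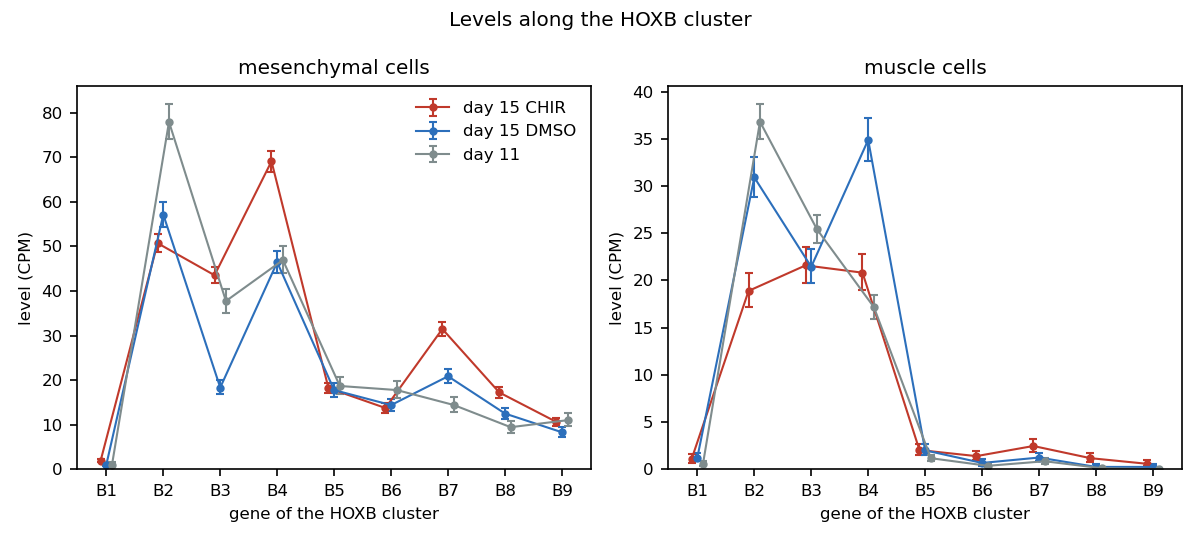
Level in CPM of HOXB1 to HOXB9 in mesenchymal cells (left) and muscle cells (right, with its own scale) of the CHIR, DMSO and day 11 libraries; bars are 95% Poisson intervals of the summed counts. HOXB2 to HOXB4 are high in both classes, and HOXB5 to HOXB9 stay between 8.27 and 31.5 CPM in mesenchymal cells but at or below 2.45 CPM in muscle cells.

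Mesenchymal cells added HOXB5 to HOXB9 and genes of the HOXC cluster. Of their HOX UMIs, HOXB5 to HOXB9 held 23.9% with CHIR, 22.6% with DMSO and 24.9% at day 11. HOXB5 had 18.2, 17.7 and 18.7 CPM in these cells, values whose intervals overlap. HOXB6 stood at 13.7, 14.4 and 17.8 CPM. HOXB7 was at 31.5, 20.8 and 14.4 CPM, highest with CHIR and lowest at day 11. HOXB8 followed the same order, with 17.2, 12.5 and 9.41 CPM. HOXB9 had 10.6, 8.27 and 11.0 CPM. HOXB7 is thus the leading gene of this stretch with CHIR and with DMSO but not at day 11.

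In the HOXC cluster, HOXC8, known in the mouse for the patterning of the trunk skeleton, led in mesenchymal cells with 26.6 CPM with CHIR, 53.4 CPM with DMSO and 18.8 CPM at day 11. HOXC6 had 10.4, 18.5 and 7.88 CPM, with the same library highest. HOXC9, of a posterior paralogue group, had 6.60, 7.67 and 3.81 CPM. Muscle cells held at most 1.42 CPM of HOXC8 and at most 0.472 CPM of HOXC6.

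HOXB2 and HOXC8 did not drop in proportion between the classes. Muscle cells had 37.2% of the mesenchymal level of HOXB2 with CHIR (95% interval 33.6 to 41.2), 54.1% with DMSO (49.7 to 58.9) and 47.2% at day 11 (44.0 to 50.7). Their level of HOXC8 was 5.33% of the mesenchymal one with CHIR (3.65 to 7.53), 1.15% with DMSO (0.654 to 1.87) and 0.123% at day 11 (0.00310 to 0.687). Other genes lay elsewhere and varied by library. HOXB3 was at 49.6% with CHIR, 117% (104 to 132) with DMSO and 67.4% at day 11. HOXC4 was at 14.5%, 6.95% and 1.51% in that order. HOXD8 was at 15.1% with CHIR and 1.93% with DMSO, and had only 2 muscle and 10 mesenchymal UMIs at day 11.

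Counted per cell, 24.6% of muscle cells with CHIR had a HOXB4 UMI, 30.5% with DMSO and 15.2% at day 11. Among endoderm cells the shares were 16.7% of 18 cells (exact binomial interval 3.58 to 41.4), 7.14% of 42 cells (1.498 to 19.5) and 5.36% of 224 cells (2.80 to 9.17). Median depths were 14790.5, 13054 and 11565 UMIs in muscle cells and 16644, 21369 and 16326.5 in endoderm cells, so the muscle share exceeded the endoderm share at a lower depth with DMSO and at day 11. With every cell thinned to 5000 UMIs, the muscle shares were 9.16%, 15.8% and 7.87%, and the endoderm shares 0%, 2.38% and 1.79%; 19, 67 and 141 shallower muscle cells were left out. With CHIR the intervals of the classes overlap, so no difference was detectable there. HOXC8 UMIs were found in 17.7% of CHIR, 28.5% of DMSO and 11.6% of day 11 mesenchymal cells, and in 1.55%, 0.413% and 0.0271% of muscle cells.

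Endothelial cells were few, and each value rests on at most 30 UMIs. HOXB5, a gene known in mouse endothelial precursors, had 39.4 CPM with CHIR (95% interval 26.0 to 57.3) and 42.6 CPM with DMSO (25.3 to 67.4). At day 11 HOXB5 had 7.45 CPM (2.996 to 15.4) in these cells. HOXB4 was at 24.8, 35.5 and 13.8 CPM and HOXB2 at 18.97, 37.9 and 31.9 CPM, so HOXB2 was the higher of HOXB2 and HOXB5 at day 11. With CHIR and with DMSO the intervals of HOXB4 and HOXB5 overlap. Both day 15 values of HOXB5 lay above those of mesenchymal cells, whereas the day 11 value lay below.

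The next ranges hold cells under 40 muscle marker UMIs per 10000, without cells of the endoderm and endothelial classes. In them the HOX level went up with the level of mesenchymal markers. The 1432 CHIR cells with at least 40 mesenchymal marker UMIs per 10000 had 474 CPM of HOX, against 95.2 CPM in the 37 cells below 5. In the DMSO library the levels were 458 CPM in 456 cells and 109 CPM in 16 cells, and at day 11 434 CPM in 497 cells and 34.4 CPM in 24 cells. HOXC genes stood at 126 CPM with CHIR, 162 CPM with DMSO and 67.1 CPM at day 11 in the uppermost range, and at 32.2, 17.1 and 5.55 CPM in the range of 10 to 20 markers. With CHIR, HOXD genes did not go up over the whole span of markers. They had 27.2 CPM in the 37 cells below 5 (95% interval 15.5 to 44.15). They had 15.7 CPM in the uppermost range and 37.9 CPM in cells with 10 to 20 markers. With DMSO they had 7.10 and 0.723 CPM in these 2 ranges.

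**Figure D3:**
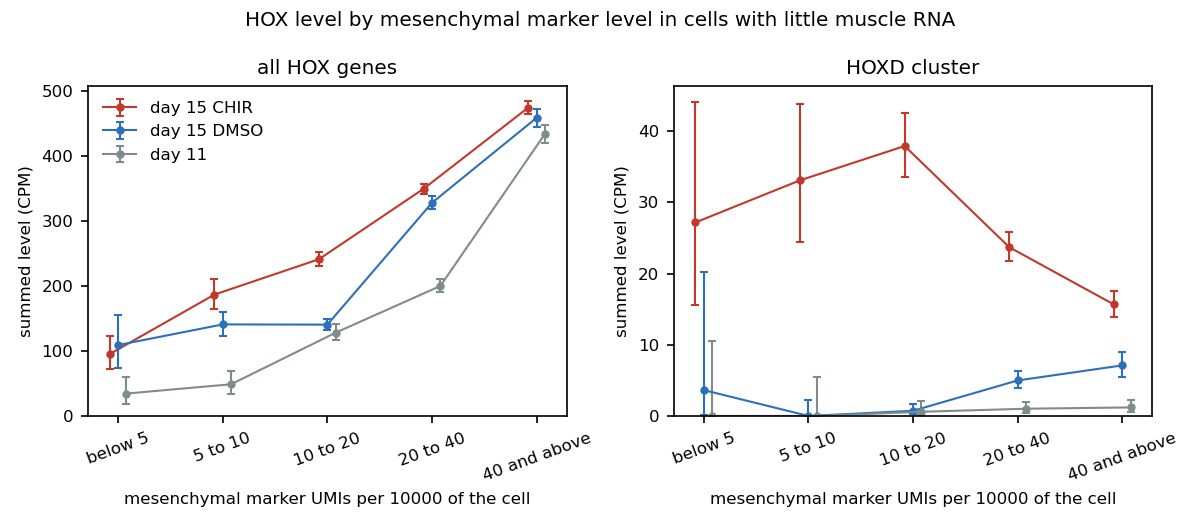
Summed level in CPM of all HOX genes (left) and of the HOXD cluster (right), split by mesenchymal marker UMIs per 10000. Cells have fewer than 40 muscle marker UMIs per 10000 and lie outside the endoderm and endothelial classes. Bars are 95% Poisson intervals, and the lowest DMSO range holds 16 cells. All HOX genes together are highest in the uppermost range of every library, whereas the HOXD level with CHIR is 37.9 CPM at 10 to 20 markers and 15.7 CPM at 40 and above.

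Mesenchymal cells with HOXB5 to HOXB9 UMIs also had more HOXA and HOXC transcripts. Cells with 2 or more such UMIs numbered 1144 with CHIR, 560 with DMSO and 331 at day 11, and those with 0 numbered 1640, 746 and 633. HOXC genes stood at 121, 168 and 89.1 CPM in cells with 2 or more, and at 42.7, 30.5 and 9.96 CPM in cells with 0. HOXA genes had 32.0, 38.9 and 33.4 CPM against 12.5, 12.4 and 5.32 CPM. HOXB2 differed less, at 54.2, 75.3 and 112 CPM against 48.3, 40.1 and 56.7 CPM.

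The HOXD cluster departed from this pattern with CHIR. It had 18.9 CPM in CHIR cells with 2 or more HOXB5 to HOXB9 UMIs and 25.8 CPM in those with 0, a ratio of 0.732 (95% interval 0.636 to 0.842). With DMSO the values were 7.93 and 1.11 CPM, a ratio of 7.15 (4.06 to 13.6). Cells with 2 or more were deeper, with medians of 13671.5, 20300.5 and 17642 UMIs against 10781, 15541 and 15457. They held 1.42, 1.61 and 1.79 times the summed mesenchymal markers of the other cells and 0.327, 0.382 and 0.426 times the endoderm markers. The part of depth and of these markers in the differences was not tested.

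**Figure D4:**
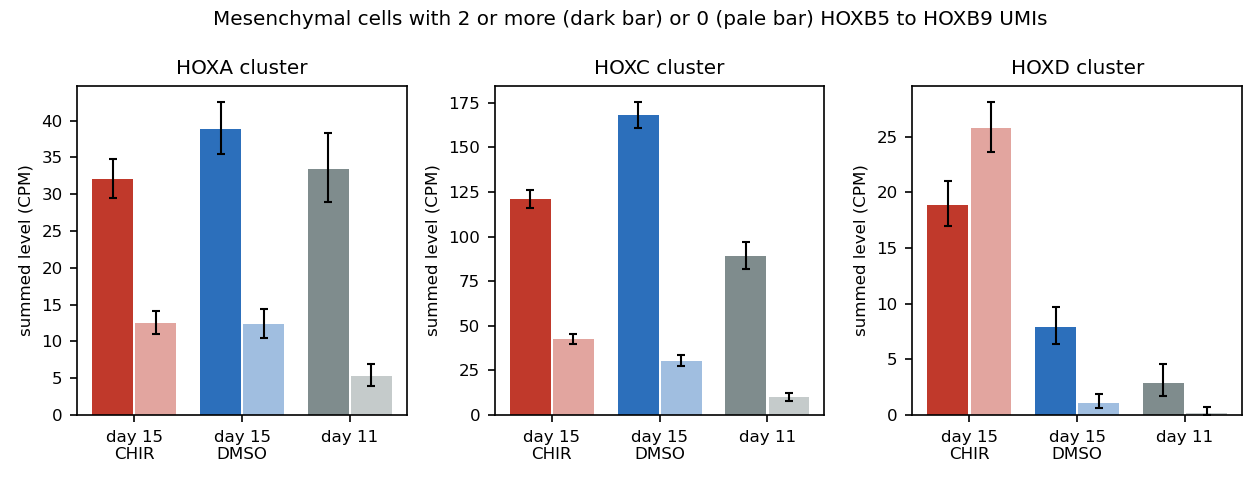
Summed level in CPM of the HOXA, HOXC and HOXD clusters in mesenchymal cells with 2 or more (dark bars) or 0 (pale bars) UMIs of HOXB5 to HOXB9, by library; error bars are 95% Poisson intervals. HOXA and HOXC are higher in the dark bars of all 3 libraries, and HOXD is lower in the dark bar with CHIR, at 18.9 against 25.8 CPM.

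CHIR was set against DMSO to see which HOX genes stood apart between the day 15 libraries. A gene was called past 2-fold when it had 20 or more UMIs over both libraries and its CPM ratio, with 0.5 added to each count, was at least 2 or at most 1/2. Over all cells, 28 HOX genes could be read. Of these, 8 were called higher with CHIR, namely HOXD11, HOXD9, HOXD3, HOXD8, HOXC10, HOXA9, HOXA10 and HOXC5, and 0 lower. Over all 18785 genes read, 12.2% were called higher and 15.9% lower. The median log2 ratio was 0.70 over the HOX genes and 0.03 over all genes. Mesenchymal cells made up 64.8% of the CHIR library and 39.4% of the DMSO library, so this comparison moves with class makeup, and the classes were therefore compared one by one.

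Within mesenchymal cells, 9 of 28 HOX genes were called higher with CHIR and 2 lower, against 19.2% higher and 14.2% lower over all 16698 genes read. The median log2 ratio was 0.42 over the HOX genes and 0.15 over all genes. The HOXD cluster, most of whose UMIs came from HOXD8 and HOXD9, summed to 22.8 CPM with CHIR and 4.67 CPM with DMSO. This is a ratio of 4.87 (95% interval 4.09 to 5.85). Cluster sums cover the members each library listed, and HOXD10 and HOXD13, listed with CHIR alone, gave 20 and 3 UMIs. The HOXA and HOXC clusters had ratios of 0.833 (0.759 to 0.915) and 0.816 (0.778 to 0.856), and the HOXB cluster 1.30 (1.26 to 1.35).

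HOXD8, a central gene, led the HOXD cluster with 12.2 CPM with CHIR and 3.97 CPM with DMSO in mesenchymal cells. This is a ratio of 3.07 (95% interval 2.52 to 3.77). With a stricter mesenchymal gate the ratio was 2.17 (1.76 to 2.68), nearer the 2-fold limit. At day 11 HOXD8 stood at 0.509 CPM under the main gate. The posterior gene HOXD9 had 322 UMIs with CHIR and 6 with DMSO, or 6.64 and 0.200 CPM, with 0 UMIs at day 11. HOXD11, which in the embryo shapes limb and sacral parts, had 70 UMIs with CHIR and 1 with DMSO, a ratio of 43.3 (7.52 to 1735). HOXD3, an anterior gene, had 61 and 3 UMIs, a ratio of 12.6 (4.11 to 62.7). HOXD4, next to it, had 29 and 11 UMIs and was not called.

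Since HOXD8 led these genes, the bases before its start show what sequence was read for motifs. They lie at chr2:176129455-176129704 on the plus strand of GRCh38.p14 (RefSeq), directly upstream of the annotated start. Capitals mark the TTTATGG motif of CDX factors.

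HOXD8: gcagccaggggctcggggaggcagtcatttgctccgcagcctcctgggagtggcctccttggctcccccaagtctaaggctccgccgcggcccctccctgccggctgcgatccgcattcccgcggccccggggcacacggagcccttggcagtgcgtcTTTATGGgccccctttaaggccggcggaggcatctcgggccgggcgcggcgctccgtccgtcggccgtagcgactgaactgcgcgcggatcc

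RefSeq start windows of 300 bases were matched by symbol for 20 of the 39 annotated HOX genes, as 26 distinct windows. Several of these are starts of HOXA3. Of the 13 genes that passed the level limits above, only HOXC4, HOXC5 and HOXD8 had a window. HOXB2 to HOXB9, HOXC6 and HOXC8 had none, so the motif counts do not describe them. The median window held 22.5 CG dinucleotides, against 14 over all 34943 promoter windows. The CDX motif TTTATGG, read on both strands, was in 1 HOX window (3.85%), that of HOXD8, and in 2.55% of all windows. CTTTGAT, the motif of the TCF/LEF factors of Wnt signalling, was in 0 HOX windows and in 2.63% of all windows. TGATTNAT, bound by PBX and HOX proteins together, was in 2 HOX windows (7.69%), those of HOXA2 and HOXD11, and in 2.82% of all. DR5, the motif of retinoic acid receptors made of a pair of half-sites, was in 0 HOX windows and in 2 of all windows. A match is a run of letters and says nothing of binding.

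In the HOXC cluster, neighbours differed in direction. HOXC8 had 26.6 CPM with CHIR and 53.4 CPM with DMSO in mesenchymal cells, a ratio of 0.498 (95% interval 0.462 to 0.536), and was called lower. This value lies at the limit, and the call was lost without mitochondrial and ribosomal genes, by the mean of per-cell CPM and with a looser gate. HOXC6 had a ratio of 0.560 (0.495 to 0.633) and HOXC9 of 0.861 (0.724 to 1.02). HOXC5 went the other way, with 19.5 CPM with CHIR and 5.34 CPM with DMSO, a ratio of 3.65 (3.08 to 4.34). HOXC4 stood at 16.3 and 13.2 CPM, a ratio of 1.23 (1.09 to 1.39). HOXC10, a posterior gene, had 39 and 2 UMIs, a ratio of 12.1 (3.12 to 103).

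The annotated spans of HOXC4, HOXC5 and HOXC6 begin at the same base in RefSeq, while their ratios were 1.23, 3.65 and 0.560. The 250 bases before that start, matched by symbol for HOXC4 and HOXC5, are shown for this reason. They lie at chr12:54016638-54016887 on the plus strand of GRCh38.p14, and hold none of the 4 motifs.

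HOXC4 and HOXC5: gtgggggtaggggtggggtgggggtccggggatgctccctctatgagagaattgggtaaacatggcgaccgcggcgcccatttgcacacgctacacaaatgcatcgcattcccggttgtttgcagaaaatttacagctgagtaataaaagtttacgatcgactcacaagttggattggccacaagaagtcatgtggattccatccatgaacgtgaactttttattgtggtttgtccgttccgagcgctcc

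The annotated spans of HOXC4, HOXC5 and HOXC6 overlap, as do those of HOXA3 with HOXA4, HOXA5 and HOXA6, of HOXB3 with HOXB4 and of HOXD3 with HOXD4. How reads in shared parts were assigned was not given in the sources used here, and levels of these 11 genes are uncertain in that respect, and the split between HOXC4, HOXC5 and HOXC6 in particular.

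In the HOXB cluster, HOXB3 was called higher with CHIR in mesenchymal cells, with 43.5 CPM against 18.3 CPM, a ratio of 2.38 (95% interval 2.16 to 2.62). At day 11 its level was 37.7 CPM, so that the DMSO library stands apart from both others. HOXB4 had 69.1 CPM with CHIR and 46.5 CPM with DMSO, a ratio of 1.49 (1.40 to 1.59). HOXB7 had a ratio of 1.51 (1.37 to 1.66), and HOXB8 of 1.38 (1.22 to 1.56). HOXB2, HOXB5 and HOXB6 had ratios between 0.888 and 1.03.

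In the HOXA cluster, the posterior genes HOXA9 and HOXA10 were called higher with CHIR and the anterior HOXA2 lower. HOXA9 had 2.08 CPM with CHIR and 0.534 CPM with DMSO, a ratio of 3.91 (95% interval 2.29 to 7.09), and 3.25 CPM at day 11. HOXA10 had 1.18 and 0.467 CPM, a ratio of 2.52 (1.39 to 4.90). With under 10 muscle marker UMIs per 10000, a limit added after the data had been seen, neither was called, with HOXA9 at 1.99 (1.15 to 3.69) and HOXA10 at 1.30 (0.702 to 2.59). HOXA2 had 1.77 and 4.03 CPM, a ratio of 0.440 (0.330 to 0.585). HOXA4 was lower without being called, with a ratio of 0.597. Posterior genes of paralogue groups 9 to 13 over all clusters summed to 30.1 CPM with CHIR and 17.2 CPM with DMSO. This is a ratio of 1.75 (1.58 to 1.94). The CHIR sum also holds HOXA11, HOXA13, HOXB13, HOXD10 and HOXD13, at 1, 11, 3, 20 and 3 UMIs, which were not listed with DMSO. HOXB9 and HOXC9, neither of them called, made up 10.6 and 6.60 CPM of the sum with CHIR and 8.27 and 7.67 CPM with DMSO.

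**Figure D5:**
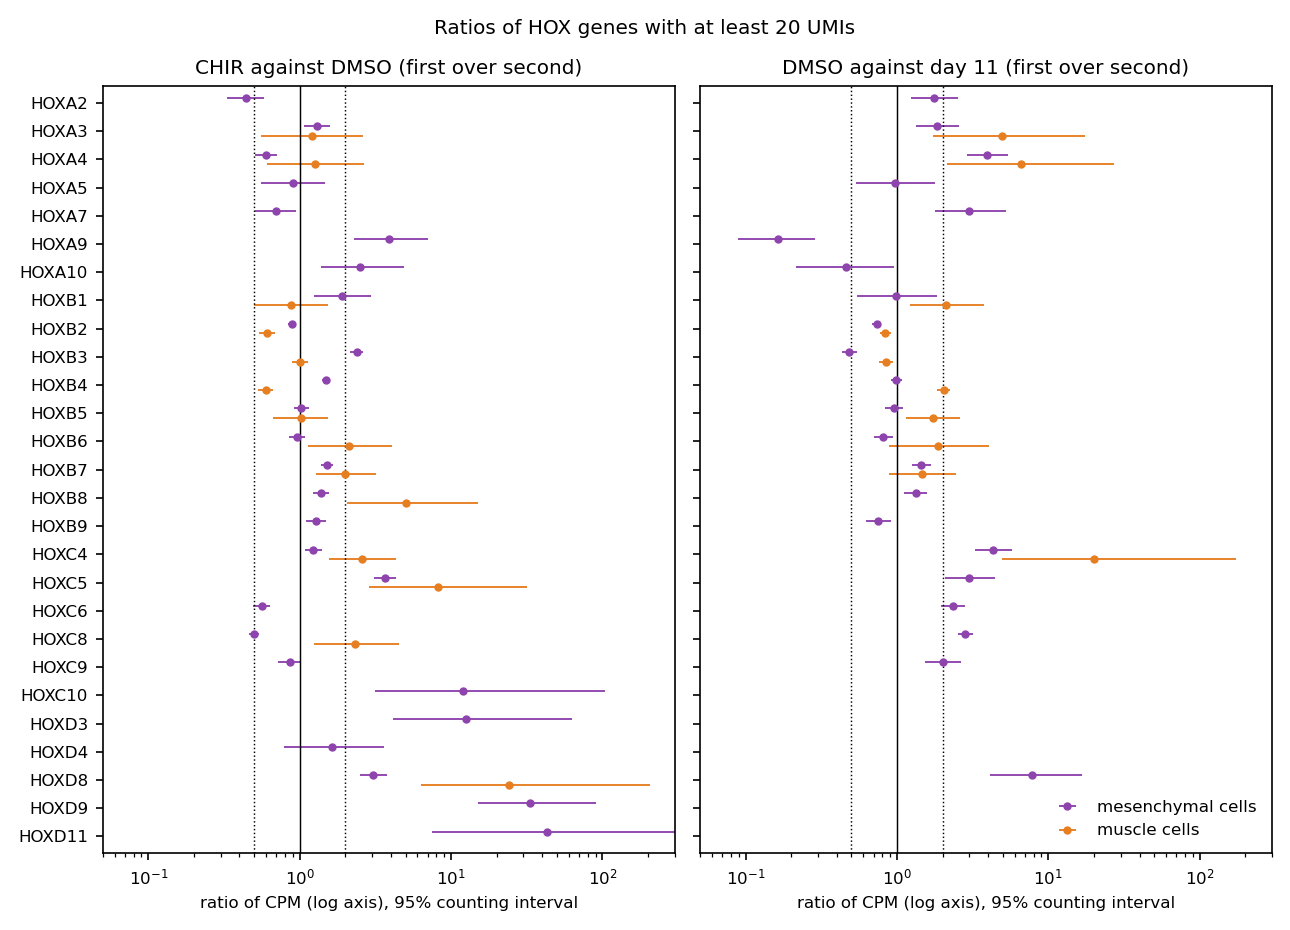
Ratio of CPM, on a log axis with 95% counting intervals, of CHIR over DMSO (left) and DMSO over day 11 (right) for HOX genes with at least 20 UMIs in mesenchymal cells (purple) and muscle cells (orange); dotted lines mark 2-fold, and the HOXD11 interval runs past the right edge to 1735. With CHIR the HOXD genes lie right of the upper dotted line in mesenchymal cells, except HOXD4 at 1.63, and HOXC8 lies at 0.498.

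Mesenchymal cells differed between the libraries in epicardial markers, which summed to 671 CPM with CHIR and 1127 CPM with DMSO, and in smooth muscle markers, at 515 and 2671 CPM. HOXC8 moved with the epicardial markers within the CHIR library, at 63.5 CPM in cells with 12 to 25 of these marker UMIs per 10000 and 12.6 CPM in cells below 3. Among cells with at least 6, HOXC8 had 42.8 CPM with CHIR and 61.0 CPM with DMSO, a ratio of 0.702 (95% interval 0.643 to 0.765), which is no longer past 2-fold. Among cells with fewer than 6 the values were 14.1 and 36.8 CPM, a ratio of 0.383 (0.331 to 0.444). HOXD8 and HOXC5 stayed past 2-fold in both ranges, HOXD8 at 3.59 and 3.02 and HOXC5 at 4.08 and 4.95. HOXA9 had ratios of 1.73 (0.838 to 3.71) and 8.96 (2.96 to 44.4) in the same ranges, and HOXA10 of 1.19 (0.449 to 3.25) and 3.17 (1.27 to 10.2). These ranges were chosen after the data had been seen.

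Muscle cells with CHIR had less HOXB2 and HOXB4 and a like level of HOXB3. HOXB2 stood at 18.9 CPM with CHIR and 30.9 CPM with DMSO, a ratio of 0.611 (95% interval 0.543 to 0.687). HOXB4 stood at 20.8 and 34.9 CPM, a ratio of 0.597 (0.533 to 0.667). HOXB3 had 21.6 and 21.4 CPM, a ratio of 1.01 (0.891 to 1.14). None of the 3 was past 2-fold.

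Of 15 HOX genes that could be read in muscle cells, 6 were called higher with CHIR and 0 lower, against 8.70% higher and 14.9% lower over all 16063 genes read. The median log2 ratio was 0.33 over the HOX genes and -0.02 over all genes. The 6 were HOXD8, HOXC5, HOXB8, HOXC4, HOXC8 and HOXB6, each at or below 2.36 CPM. HOXD8 had 43 UMIs with CHIR and 2 with DMSO, a ratio of 24.1 (95% interval 6.29 to 206). HOXC4 had 55 and 24 UMIs, a ratio of 2.57 (1.57 to 4.35). HOXD9 had 17 and 0 UMIs, at least 6.36-fold higher against a floor of 3 counts per library, and was below the minimum for a call. Muscle cells also held more mesenchymal RNA with CHIR: all 9 mesenchymal markers summed to 487 CPM with CHIR and 333 CPM with DMSO, and COL3A1 stood at 150 and 73.4 CPM.

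With muscle cells limited to those under 2 mesenchymal marker UMIs per 10000, a limit added after the data had been seen, 0 of 5 readable HOX genes were called higher and 4 lower, against 8.49% higher and 14.0% lower over all 14162 genes read in these cells. This left 544 cells with CHIR and 1038 with DMSO, with COL3A1 at 31.9 and 8.21 CPM. HOXB2 then had 16.3 CPM with CHIR and 33.7 CPM with DMSO, a ratio of 0.484 (95% interval 0.397 to 0.587), and HOXB4 14.8 and 31.2 CPM, a ratio of 0.474 (0.385 to 0.581). HOXB5 and HOXB1 were the other 2, with ratios of 0.298 (0.0897 to 0.786) and 0.447 (0.130 to 1.25). HOXB3 had a ratio of 0.786 (0.639 to 0.964). HOXD8 had 6 and 1 UMIs and HOXC8 5 and 2, too few to read. With a stricter muscle gate HOXB2 had a ratio of 0.541 and HOXB4 of 0.503, neither past 2-fold.

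In endoderm cells 0 of the 30 HOX genes listed in both tables reached 20 UMIs, with 18 cells with CHIR and 42 with DMSO, so no HOX gene could be compared at this depth.

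DMSO cells of day 15 were set against day 11. The 2 libraries differ in day, and the day 11 labels give no treatment, so day and treatment cannot be told apart. CPM is a share of all UMIs, so genes cannot all be lower in 1 library, but the median gene had a lower share with DMSO. The median log2 ratio over all genes was -0.72 in all cells, -0.67 in muscle cells and -0.62 in mesenchymal cells. Trimmed mean (TMM) scaling would add 0.68, 0.64 and 0.56. Ribosomal protein genes took 24.2% of UMIs with DMSO and 15.1% at day 11, and their part in this was not tested. Median cells had 3644 genes with DMSO and 4367 at day 11. Over all cells, 13 of 23 HOX genes were called higher with DMSO and 1 lower, against 3.59% higher and 40.8% lower over all 20033 genes read. The median log2 ratio of the HOX genes was 1.18. The gene called lower was HOXA9. Mesenchymal cells made up 39.4% of the DMSO library and 20.9% of the day 11 library.

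Within mesenchymal cells, 9 of 23 HOX genes were called higher with DMSO and 3 lower, against 3.66% higher and 37.8% lower over all 16702 genes read. The HOX median was 0.53. With TMM scaling the counts were 12 higher and 1 lower, against 11.3% higher and 22.6% lower over all genes. The HOXC cluster summed to 98.1 CPM with DMSO and 35.8 CPM at day 11, a ratio of 2.74 (95% interval 2.53 to 2.98), and HOXC4, HOXC5, HOXC6, HOXC8 and HOXC9 were all called higher. HOXC8 had 53.4 CPM with DMSO and 18.8 CPM at day 11, a ratio of 2.84 (2.53 to 3.18). HOXC4 had 13.2 and 3.05 CPM, a ratio of 4.33 (3.29 to 5.78). HOXD8 had 119 and 10 UMIs, a ratio of 7.80 (4.10 to 16.7). HOXA4 and HOXA7 were also called higher, with ratios of 3.92 and 2.99. Smooth muscle markers summed to 2671 CPM with DMSO and 4469 CPM at day 11 in these cells, and their part was not tested. Among mesenchymal cells with under 10 muscle marker UMIs per 10000, a limit added after the data had been seen, 5 of 23 HOX genes were called higher and 4 lower, against 3.77% higher and 33.9% lower over all 14341 genes read there. HOXC8 then had 65.5 and 34.9 CPM, a ratio of 1.88 (1.62 to 2.18), HOXC6 a ratio of 1.30 (1.03 to 1.66) and HOXC9 of 1.16 (0.857 to 1.57), so that 3 of the 5 HOXC calls were lost. HOXC4 had a ratio of 2.55 (1.74 to 3.84), HOXC5 of 2.15 (1.23 to 4.00), HOXD8 of 5.27 (2.28 to 15.0), HOXA4 of 2.13 (1.45 to 3.204) and HOXA7 of 2.09 (1.11 to 4.198).

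The 3 called lower in mesenchymal cells were HOXA9, HOXA10 and HOXB3. HOXA9 had 0.534 CPM with DMSO and 3.25 CPM at day 11, a ratio of 0.164 (95% interval 0.0884 to 0.287). HOXB3 had 18.3 and 37.7 CPM, a ratio of 0.485 (0.434 to 0.542). With TMM scaling HOXA9 alone was called lower. HOXB2, HOXB6 and HOXB9 had ratios of 0.733, 0.810 and 0.753 and turned to log2 ratios of 0.11, 0.26 and 0.15 with TMM scaling. HOXB4 and HOXB5, at -0.02 and -0.07 on the log2 scale, turned to 0.55 and 0.49. These HOXB genes therefore have no direction between the libraries that holds under both scalings. HOXB7 and HOXB8 were higher with DMSO, with ratios of 1.45 (1.26 to 1.67) and 1.33 (1.11 to 1.59). Both stay higher when TMM scaling adds 0.56 on the log2 scale, and HOXB3, at -1.04, stays lower.

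In muscle cells, 6 of 11 HOX genes were called higher with DMSO than at day 11 and 0 lower, against 3.63% higher and 38.5% lower over all 18226 genes read. The HOX median was 1.02. With TMM scaling the counts were 9 higher and 0 lower, against 13.8% higher and 22.4% lower over all genes. HOXB4 had 34.9 CPM with DMSO and 17.2 CPM at day 11, a ratio of 2.03 (95% interval 1.84 to 2.24). In muscle cells with little mesenchymal RNA the ratio was 1.87 (1.57 to 2.24). HOXB2 and HOXB3 had ratios of 0.840 and 0.843, which turned to log2 ratios of 0.39 and 0.40 with TMM scaling. HOXA3, HOXA4, HOXC4 and HOXB1 were also called higher, each at or below 1.22 CPM. Of these, HOXC4 had 24 and 2 UMIs, a ratio of 19.9 (4.94 to 174). It had 13 and 1 UMIs with a stricter muscle gate, and 6 and 0 in muscle cells with little mesenchymal RNA, too few to read. Fewer HOX genes were called higher under either limit, and no share over all genes was taken there. Mean paralogue number over HOX UMIs, a summary of how far along the cluster transcription reached, was 3.198 with DMSO and 2.85 at day 11 in muscle cells, and 3.71 with CHIR. Mesenchymal markers stood at 487 CPM with CHIR, 333 CPM with DMSO and 508 CPM at day 11 in these cells. Their part in the mean paralogue number was not tested.

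The partners and regulators of HOX proteins were read from 4 lists. Of the 9 TALE cofactors, 0 were past 2-fold between CHIR and DMSO over all cells, beside 12.2% higher and 15.9% lower over all genes. PBX3 was the only one called in mesenchymal cells, with 48.0 CPM with CHIR and 119 CPM with DMSO, and the list's median log2 ratio there was 0.50, beside 0.15 over all genes. PKNOX2 was the only one called in muscle cells, at 0.987 and 2.45 CPM. In each class this is 1 of 9 called lower, beside 14.2% and 14.9% over all genes. In the DMSO to day 11 comparison 7 of the 9 were called lower over all cells, among them MEIS1 at 15.5 against 102 CPM and PKNOX2 at 2.56 against 27.2 CPM. Over all genes 40.8% were called lower. The list's median log2 ratio was -1.36, beside -0.72 over all genes.

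Of the 15 caudal and retinoic acid genes, 11 could be read in mesenchymal cells of CHIR and DMSO, of which 3 were called higher and 3 lower, beside 19.2% higher and 14.2% lower over all genes. TSHZ1, a trunk patterning factor, had 10.0 CPM with CHIR and 3.67 CPM with DMSO, and RARG, a retinoic acid receptor, 10.5 and 3.90 CPM. CDX2, a caudal factor, was also higher, and ALDH1A2, which makes retinoic acid, CYP26A1, which degrades it, and CDX1 were lower, each at or below 3.24 CPM. ALDH1A2 is also one of the epicardial markers. The list's median log2 ratio was 0.21, beside 0.15 over all genes. In muscle cells 8 could be read, with 1 called higher and 1 lower, beside 8.70% and 14.9% over all genes. CRABP2, which carries retinoic acid to its receptors, had 565 CPM with CHIR and 257 CPM with DMSO. CRABP1, a related carrier, had 3.09 and 6.54 CPM, a ratio of 0.473 (95% interval 0.354 to 0.626).

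Of the 21 noncoding RNAs of the HOX clusters, 9 could be read in mesenchymal cells of CHIR and DMSO, with 1 called higher and 3 lower, beside 19.2% and 14.2% over all genes, and a median log2 ratio of -0.56, beside 0.15 over all genes. HOTAIRM1, transcribed from the HOXA cluster, had 16.4 CPM with CHIR and 58.1 CPM with DMSO, a ratio of 0.283 (95% interval 0.260 to 0.308). It was lower in muscle cells too, at 2.45 and 7.76 CPM. HOXB-AS3 had 6.35 and 19.6 CPM, a ratio of 0.324 (0.281 to 0.372). HOXB-AS1 was called lower in muscle cells, with 36.0 and 84.4 CPM. Whether counting used the strand was not given in the sources used here, so antisense RNAs and the genes they overlap cannot be told apart with certainty.

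Of the 16 Polycomb and Trithorax subunits, 4 were called higher and 1 lower with CHIR in mesenchymal cells, beside 19.2% and 14.2% over all genes, so that these counts lie near the background. The median log2 ratio was 0.39, beside 0.15 over all genes. KMT2D and KMT2A, Trithorax-type enzymes that methylate histone H3, had 9.49 against 2.93 CPM and 82.9 against 37.3 CPM. BMI1 and SUZ12, subunits of the Polycomb complexes, had 17.4 against 8.30 CPM and 48.5 against 24.1 CPM. CBX7, which reads the Polycomb histone mark, had 1.32 CPM with CHIR and 12.2 CPM with DMSO, a ratio of 0.108 (95% interval 0.0816 to 0.141). In muscle cells CBX7 was the only one of the 16 past 2-fold, at 1.72 and 16.4 CPM, beside 8.70% higher and 14.9% lower over all genes.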

How the data were processed

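Single-cell libraries of dissociated, live-sorted cells were made with a kit that reads transcript ends, per the labels' protocols. The authors deposited, for each of 3 libraries, UMI counts of each gene in each cell, raw and in whole numbers; per the submitters' processing notes the reads were processed with Cell Ranger 6.1.1. The use of introns and strand in counting was not given in the sources used here, and the H3K27ac peaks were not used here.

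UMIs were summed per class and divided by all UMIs of the class (CPM), with exact Poisson 95% intervals. Ratios carry exact conditional binomial (Clopper-Pearson) 95% intervals, all of which cover only counting error. Since a group was 1 library, no test was possible, and a call is a ratio of 2 with at least 20 UMIs. The rule was run on simulated counts that held counting error only, with changes larger than its limit. That run cannot speak for differences between libraries or for genes near the UMI minimum. Endoderm cells had at least 3 endoderm marker UMIs per 10000 from at least 3 markers, endothelial cells at least 5, and muscle cells fewer than 20 of mesenchymal; cells with both were left out. Cutoffs were set after marker levels were seen. Scrublet (scanpy 1.11.5) called 0, 220 and 1 cells as doublets with CHIR, with DMSO and at day 11, so it did not work in 2 libraries and doublets were kept in all. TMM factors came from edgeR 4.0.16.

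Genes were named by level (5 CPM in a library, or 10 CPM in a class of at least 50 cells); other HOX genes, such as HOXD9 and HOXD11, and some genes of the lists were named after their values were seen. Some items of the members and lists are not reported here. Members and lists were chosen with earlier results of these data known. Epicardial markers were WT1, TCF21, UPK3B, BNC1, LRRN4, TBX18, ALDH1A2 and KRT19.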

Additional observations from a re-analysis of the deposited data

Results flagged for a closer look

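HOXC8 was called in opposite directions with CHIR in the 2 large classes under the main gates. Its log2 ratio of CHIR over DMSO was 1.19 in muscle cells, from 33 and 16 UMIs, and -1.01 in mesenchymal cells, from 1288 and 1600 UMIs. The difference between the classes was not tested, since each group had 1 library. In the same muscle cells the summed mesenchymal markers were 487 CPM with CHIR and 333 CPM with DMSO, and their part in the muscle value was not tested. With a stricter muscle gate HOXC8 had 5 UMIs with CHIR and 4 with DMSO. In muscle cells with little mesenchymal RNA it had 5 and 2, and both settings left too few to call. The mesenchymal value lies at the 2-fold limit, and its call was lost under some of the alternative settings.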

How the results depend on the processing

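No paired analysis was possible because each single-cell group had 1 library. Counts of HOX genes past 2-fold moved by over 1.5 times as follows. Shares over all genes were taken only where given above, for TMM scaling and for little muscle or mesenchymal RNA. The other counts have no such share beside them, so they are not read as a result about HOX genes. For CHIR against DMSO in all cells (8 higher, 0 lower), a 1.5-fold limit gave 16 and 3. In muscle cells (6 higher, 0 lower), the higher count was 3 at 3-fold, 15 with no UMI minimum, 1 with a minimum of 50 UMIs, 2 without the highest doublet scores, and 0 with a stricter gate or with little mesenchymal RNA. The lower count there was 3 at 1.5-fold, 1 with no minimum, without the highest doublet scores or with a looser gate, 2 with a stricter gate and 4 with little mesenchymal RNA. In mesenchymal cells (2 lower), it was 5 at 1.5-fold, 0 at 3-fold, 4 with low epicardial markers, and 1 without mitochondrial and ribosomal genes, by the mean of per-cell CPM or with a looser gate. In endoderm cells no minimum gave 12 higher and 2 lower. For DMSO against day 11, no minimum gave 4 lower in all cells, 15 higher in muscle cells and 6 lower in mesenchymal cells. The higher count in muscle cells (6) was 2 with a minimum of 50 UMIs, 3 with a stricter gate and 1 with little mesenchymal RNA. In mesenchymal cells (9 higher, 3 lower) it was 3 and 1 at 3-fold, 5 higher with little muscle RNA, and 1 lower with TMM factors or without mitochondrial and ribosomal genes. The causes of these moves were not tested, beyond the smaller number of genes and cells that stricter settings leave. Little mesenchymal RNA, little muscle RNA and the epicardial ranges were chosen after seeing the data. The share of muscle cells with a HOXB4 UMI was 9.16%, 15.8% and 7.87% (CHIR, DMSO, day 11) after thinning and 5.67%, 10.4% and 3.69% when 2 UMIs were asked for. For HOXC8 in mesenchymal cells these were 9.50%, 16.6% and 6.02%, and 8.44%, 21.9% and 6.91%. Among the 13 genes named by level, no value past 2-fold in muscle or mesenchymal cells changed sign under the alternatives run. Signs of the other HOX genes, and of values over all cells, were not checked in this way. Depth limits genes under 20 UMIs, and every value rests on 1 library.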
